A study of Rattus norvegicus with 17 samples.

Results

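The liver makes most of the proteins dissolved in blood plasma, and 36 genes of that programme were followed here in the kidney tissue that remains after part of a kidney is cut away. They were chosen by symbol, from earlier results on these same tables: carriers such as albumin, apolipoproteins, fetuins, clotting factors, protease inhibitors and 3 enzymes of hepatocyte nitrogen and tyrosine metabolism. A row of the gene tables belonged to the set where its gene name equalled 1 of the 36 symbols, and the row with the highest mean level was taken where a symbol recurred. Of the 36 genes, 35 had a row, among 27200 symbols, 31195 rows with 1 gene name and 126306 rows in all. Kng1, the gene of the bradykinin precursor kininogen, was the 1 gene without a row under its symbol.

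The 17 rats were male Sprague Dawley rats that arrived at 9 weeks of age, ate a 0.4% Dyets chow, had surgery at 10 weeks and gave their left kidney 6 weeks later, with no other treatment. In 5/6Nx (6 rats) the whole right kidney was removed along with a large piece of the left kidney. In 1/3Nx (6 rats) an equal piece of the left kidney was excised beside an intact right kidney. In sham surgery (5 rats) nothing was excised. The samples of both surgery groups are therefore remnants, and they were measured as bulk tissue, in which fewer cells of a type and less RNA per cell cannot be told apart. Stranded total RNA libraries were sequenced from both ends and held 59.0 to 103.6 M reads (M for mega) in 5/6Nx, 59.7 to 83.0 M in 1/3Nx and 66.1 to 78.5 M in sham, with 62.6% to 90.5%, 87.1% to 90.1% and 84.8% to 89.6% of reads mapped in 5/6Nx, 1/3Nx and sham. The lowest mapped share was that of 1 of the 5/6Nx libraries.

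Levels are FPKM, fragments per kilobase of transcript and per M mapped fragments, and the deposited tables give 1 value per group, with no value per rat. No SD or n of replicates can therefore stand beside a level, and the p and q values are those the authors computed. For the 35 genes, sham FPKM in the 1/3Nx table exceeded that in the 5/6Nx table by a median factor of 2.01 (range 1.99 to 2.03), so levels were set side by side only within a table. A gene was counted as called where the q-value of the authors' deposited table was under 0.05. That q was adjusted over all tested rows, unnamed ones included, of which 58.0% of 103823 were called in 5/6Nx and 6.4% of 21217 in 1/3Nx. An unadjusted p of up to 0.0290 was therefore still called in the authors' deposited table of 5/6Nx, and of up to 0.0032 in that of 1/3Nx. Both surgeries share the sham rats, and the genes were chosen with these differences known, so every count is a description.

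Hepatocytes secrete these proteins under the drive of transcription factors such as HNF4A, FOXA and C/EBP, and several of those factors are also made by the epithelium of the kidney's proximal tubule. The proximal tubule is known as the place where filtered albumin, vitamin D binding protein and retinol binding protein are taken back up through megalin and cubilin. A healthy kidney is known to transcribe some of the secreted proteins itself and to make little or none of others, albumin among them.

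The set was divided into 2 classes by a chosen cut of 1 FPKM in sham kidney. By the 5/6Nx table's values, 12 of the 35 genes stood at 1 FPKM or more in sham kidney and 23 stood under it; in the 1/3Nx table, with its higher scale, 14 stood at or above it and 21 under it. The genes nearest to 1 FPKM were Ambp (1.35) and Itih1 (0.968) in the sham values of the 5/6Nx table, and Alb (1.19) and Ttr (0.624) in those of the 1/3Nx table. The abundant class was led by Serpinf2, Apoc3, Serpinc1, Gc, Rbp4 and Pzp, each over 10 FPKM in sham kidney in both tables. The sparse class held liver products such as Serpina1, Apoa1, Apoc1, Ahsg and Orm1.

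**Figure D1:**
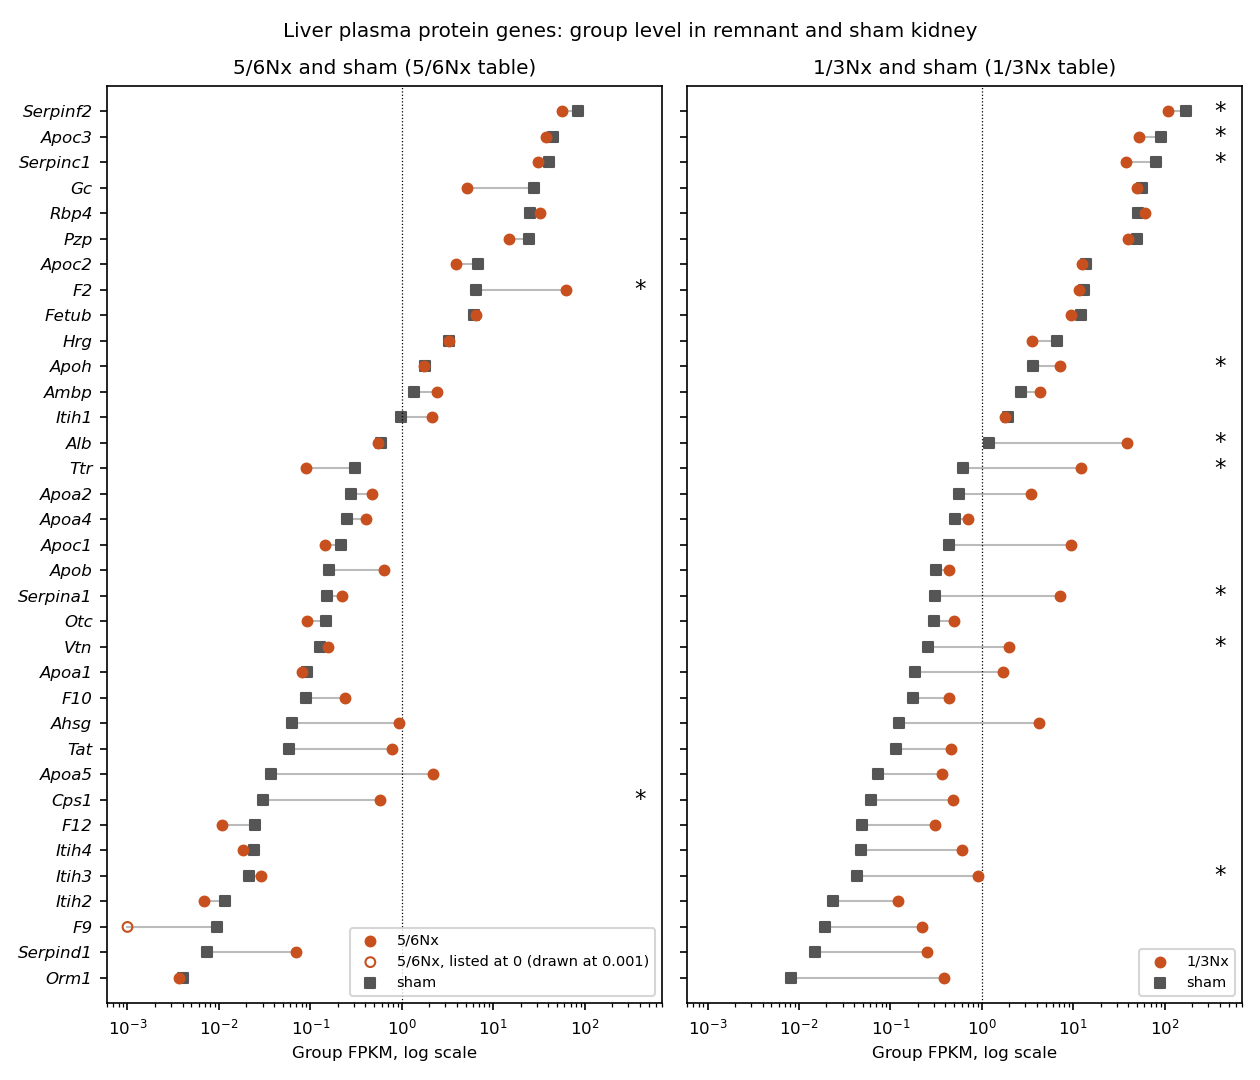
Group FPKM of the 35 genes on a log axis, in 5/6Nx and sham (left) and in 1/3Nx and sham (right), ordered by sham level; circles are the surgery group, squares sham, the dotted line 1 FPKM, and an asterisk a deposited q under 0.05. In the 1/3Nx panel all 21 genes left of the line in sham lie further right in 1/3Nx. Of the 9 genes with over 10 FPKM in sham 8 lie further left, where 66.2% of all rows with 1 name at that level were lower.

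Sequences upstream of the gene starts are shown for 3 of the genes called in 1 of the surgeries, each sparse or close to 1 FPKM in sham kidney. They are RefSeq windows of build GRCr8, from 250 bases before to 50 bases after the start, read along the gene's own strand. Alb, called higher in 1/3Nx, lies on the minus strand with its window at chr14:17906930-17907229, and its capitals mark the loose C/EBP form TTNNGNAA, the first of the 3 stretches reading it on the opposite strand. Cps1, called higher in 5/6Nx, lies on the plus strand at chr9:76063613-76063912, and its capitals mark the HNF4 letters CAAAGTCCA, read on the opposite strand. Itih3, called higher in 1/3Nx, lies on the minus strand at chr16:6123325-6123624, and its capitals mark TATAAA.
Alb: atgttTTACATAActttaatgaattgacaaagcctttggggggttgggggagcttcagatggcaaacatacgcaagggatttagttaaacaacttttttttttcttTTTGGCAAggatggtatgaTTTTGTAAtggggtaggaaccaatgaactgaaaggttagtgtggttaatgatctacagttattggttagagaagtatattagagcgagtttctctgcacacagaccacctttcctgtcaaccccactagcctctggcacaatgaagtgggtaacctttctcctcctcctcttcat
Cps1: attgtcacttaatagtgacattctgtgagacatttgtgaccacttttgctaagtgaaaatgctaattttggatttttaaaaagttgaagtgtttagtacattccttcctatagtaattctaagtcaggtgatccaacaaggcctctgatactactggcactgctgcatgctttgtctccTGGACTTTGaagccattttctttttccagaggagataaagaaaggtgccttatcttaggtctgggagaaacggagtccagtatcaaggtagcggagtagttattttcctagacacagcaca
Itih3: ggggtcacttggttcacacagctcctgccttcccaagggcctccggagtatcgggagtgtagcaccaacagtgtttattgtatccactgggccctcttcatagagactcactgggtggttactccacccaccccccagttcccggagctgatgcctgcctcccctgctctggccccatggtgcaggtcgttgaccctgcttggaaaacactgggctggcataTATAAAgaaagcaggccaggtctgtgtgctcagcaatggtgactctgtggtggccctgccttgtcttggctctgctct
Counted from the start site, the capitals begin at positions -245, -144 and -125 in Alb, at -71 in Cps1 and at -28 in Itih3. Searched on both strands of the 29 windows found for the set, CAAAGTCCA was present in 1, that of Cps1 (3.45%), against 0.375% of 27457 RefSeq promoter windows of the same length. TATAAA stood in 6 of the 29 windows (20.7%, against 14.3% of all) and TGTTTAC of the FOXA factors in 2 (6.90%, against 3.76%). The 6 windows with TATAAA were those of Apoa5, Apoc2, Itih3, Itih4, Orm1 and Rbp4. TTNNGNAA stood in 17 (58.6%, against 40.8%), and the C/EBP palindrome TTGCGCAA, which is 1 case of it, stood in none (0.197% of all). By sham level in the 1/3Nx table, TTNNGNAA stood in 9 of the 17 searched genes under 1 FPKM and in 7 of the 11 at or above it. These are matches of letters within a window, and binding was not measured.

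In 1/3Nx remnants the sparse liver genes were higher and the abundant ones mostly lower. Of the 35 genes 25 were higher and 10 lower than in sham kidney, with a median log2 ratio of 0.99 (pseudocount 0.1 FPKM), against a median of 0.040 over the 17891 rows with 1 name above 0 in sham. That median of the set was 1.90 with a pseudocount of 0.01 FPKM, 0.30 with 1 FPKM and 0.082 over the genes with a mean of at least 1 FPKM. Of the 29 genes the authors tested, 6 were called higher and 3 lower; over all 13326 tested rows with 1 name 5.7% were called higher and 2.63% lower. All 21 genes under 1 FPKM in sham were higher, where 62.2% of all rows above 0 and under 1 FPKM were. Of these 21, 15 were tested and 4 called higher. Of all tested rows under 1 FPKM 13.9% were called higher, rows at 0 in sham included, and 255 of the 2018 above 0 were. Of the 14 genes at 1 FPKM or more 10 were lower, where 51.2% of all rows at that level were. Among these 14, 2 were called higher and 3 lower (4.19% and 3.09% of such rows were). The 9 genes at 10 FPKM or more included 8 lower ones, where 66.2% of all rows with 1 name at that level were lower.

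In absolute level the 21 genes under 1 FPKM in sham, which do not include Alb, remained small. They summed to 46.3 FPKM in 1/3Nx remnants, against 4.25 FPKM in sham kidney. The 14 genes at 1 FPKM or more summed to 436 FPKM in 1/3Nx remnants, against 553 FPKM in sham kidney. Alb stands among these 14, at 39.0 FPKM in 1/3Nx remnants, against 1.19 FPKM in sham kidney. By the sham values of the 5/6Nx table, at 0.590 FPKM, it belongs to the sparse class. The gains of the 25 higher genes added up to 94.6 FPKM, of which Alb alone made 40.0%, and the losses of the 10 lower genes to -169 FPKM. A fold of at least 10 was reached by 10 of the 35 genes, 9 of them under 1 FPKM in sham, where 3.73% of all rows above 0 and under 1 FPKM reached it.

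In 5/6Nx remnants the set split nearly evenly in direction on the authors' scale. Of the 35 genes 17 were higher and 18 lower than in sham kidney, with a median log2 ratio of -0.0055. All rows with 1 name and at least 1 FPKM in sham had a median log2 ratio of -0.19 in this table, and relative to that shift 26 of the 35 were higher and 9 lower. The 9 genes that turned were Alb, Orm1, Apoa1, Apoh, Itih2, Itih4, F9, F12 and Hrg, all close to their sham level or close to 0. The pseudocount holds the ratios of genes near 0 close to 0. All 9 were under their sham level, and subtracting the shift counted them as higher. For F9, F12, Itih2 and Itih4 this rested on the pseudocount, since without it their ratios lay under the shift. The median log2 ratio was 0.18 over all rows with 1 name above 0 and under 1 FPKM in sham, and -0.045 over all above 0. Of the 21 tested genes 2 were called higher, F2 and Cps1, and none lower by the authors' test in the deposited table, where 2 had an unadjusted p under 0.05; 8.01% of all 14452 tested rows with 1 name were called higher and 0.09% lower. Under 1 FPKM in sham 13 genes were higher and 10 lower, with 1 of the 9 tested called higher. Of all tested rows under 1 FPKM 22.7% were called higher, rows at 0 in sham included, and 581 of the 3713 above 0 were. No gene of the set was at 0 in sham. Relative to the shift of -0.19, that of rows at 1 FPKM or more, the 23 genes became 20 higher and 3 lower. Their median log2 ratio was 0.18 on the authors' scale, as was that of all rows above 0 and under 1 FPKM. On the authors' scale 59.2% of all rows above 0 and under 1 FPKM were higher. At 1 FPKM or more 4 were higher and 8 lower (6 and 6 relative to the shift, and 64.3% of all such rows lower on the authors' scale), with 1 of 12 called higher and none lower (1.6% and 0.0993% of all such rows were). A fold of at least 10 was reached by 4 genes, all under 1 FPKM in sham, where 19.5% of all rows above 0 and under 1 FPKM reached it. With q-values recomputed from the p-values of the authors' deposited table over rows with 1 name alone, where 4.09% of rows were called in 5/6Nx and 9.31% in 1/3Nx, neither F2 (0.168) nor Cps1 (0.184) was called in 5/6Nx. The summed level of the 35 genes was 267 FPKM in 5/6Nx remnants, against 278 FPKM in sham kidney.

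**Figure D2:**
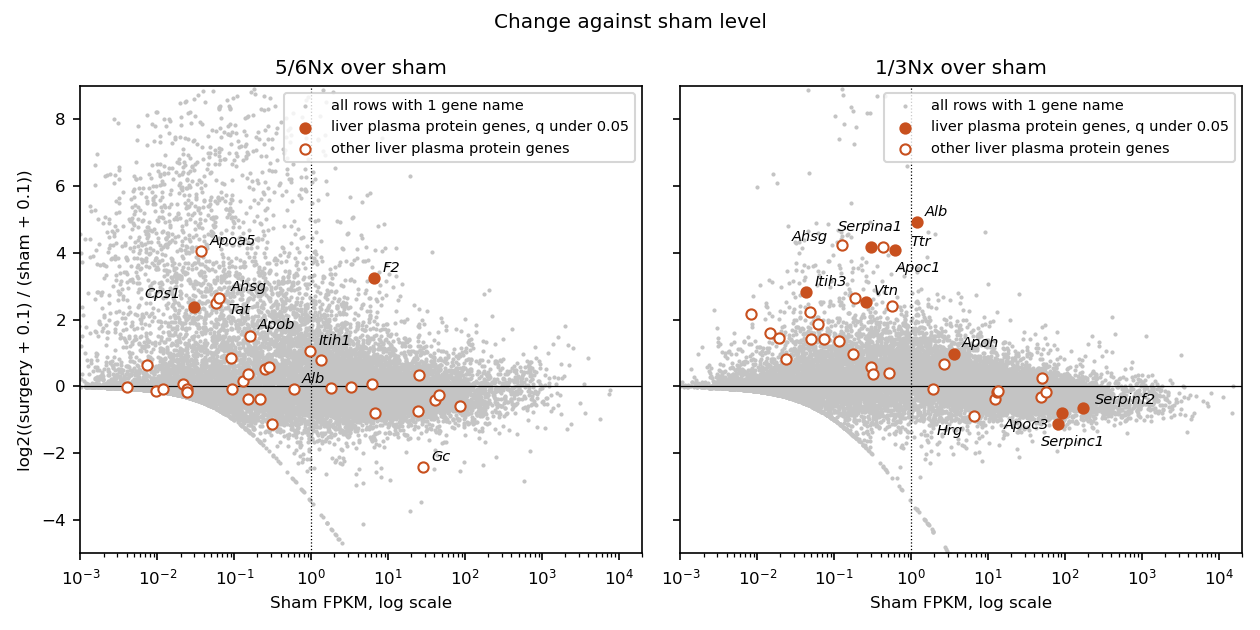
Log2 ratio of surgery over sham (pseudocount 0.1 FPKM) against sham FPKM on a log axis, for 5/6Nx (left) and 1/3Nx (right); grey points are all rows with 1 gene name, circles the liver plasma protein genes, filled where the deposited q was under 0.05, and rows beyond the axis limits are not drawn. The 21 genes left of the dotted line at 1 FPKM all lie above 0 in 1/3Nx, while in 5/6Nx 13 of 23 do. Subtracting -0.19, the median of rows at 1 FPKM or more, would make this 20 of 23. The 23 genes have a median of 0.18 in 5/6Nx, as do all rows above 0 and under 1 FPKM.

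Of the 6 carriers, 2 were called higher in 1/3Nx and none in 5/6Nx. Alb, which encodes albumin, the main protein of plasma, stood at 39.0 FPKM in 1/3Nx remnants, against 1.19 FPKM in sham kidney, a fold of 32.9 and a log2 ratio of 5.04 (q = 0.00183 in the authors' deposited table, the smallest it holds). In 5/6Nx remnants it stood at 0.553 FPKM, against 0.590 FPKM in sham kidney (q = 0.948 in the authors' deposited table). Albumin mRNA was thus high in 1 surgery group and near the sham level in the other, and it ranked 6th of the 35 genes by level in 1/3Nx and 19th in 5/6Nx.

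Ttr, the thyroxine and retinol binding protein carrier transthyretin, had 12.3 FPKM in 1/3Nx remnants, against 0.624 FPKM in sham kidney (log2 ratio 4.30, q = 0.0434 in the authors' deposited table). In 5/6Nx remnants Ttr had 0.0894 FPKM, against 0.311 FPKM in sham kidney, and was not tested by the authors. Orm1, the acute phase protein orosomucoid, was tested in neither table and stood at 0.385 FPKM in 1/3Nx remnants, against 0.00819 FPKM in sham kidney. Its value in 5/6Nx remnants was 0.00365 FPKM, against 0.00405 FPKM in sham kidney.

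The other 3 carriers were made by sham kidney at higher levels and none was called. Gc, the vitamin D binding protein, stood at 5.21 FPKM in 5/6Nx remnants, against 28.1 FPKM in sham kidney (log2 ratio -2.43, q = 0.306 in the authors' deposited table), and this was the lowest ratio of the 21 tested genes in 5/6Nx. In 1/3Nx remnants Gc stood at 49.8 FPKM, against 56.3 FPKM in sham kidney. Rbp4, the retinol carrier of plasma, had 32.4 FPKM in 5/6Nx remnants, against 25.45 FPKM in sham kidney, and 60.3 FPKM in 1/3Nx remnants, against 50.9 FPKM in sham kidney. Ambp, the precursor of alpha-1-microglobulin and bikunin, had 2.41 FPKM in 5/6Nx remnants, against 1.35 FPKM in sham kidney, and 4.35 FPKM in 1/3Nx remnants, against 2.70 FPKM in sham kidney.

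Of the 9 apolipoproteins, 7 were higher and 2 lower in 1/3Nx, with 1 called in each direction, and 4 were higher and 5 lower in 5/6Nx, with none called. Apoh, beta-2-glycoprotein I, which binds phospholipid, stood at 7.21 FPKM in 1/3Nx remnants, against 3.59 FPKM in sham kidney (log2 ratio 1.01, q = 0.0482 in the authors' deposited table). Apoc3, an inhibitor of lipoprotein lipase, fell to 52.5 FPKM in 1/3Nx remnants, against 90.5 FPKM in sham kidney (log2 ratio -0.79, q = 0.0278 in the authors' deposited table). Both were near their sham levels in 5/6Nx: Apoh at 1.73 FPKM, against 1.79 FPKM in sham kidney, and Apoc3 at 37.7 FPKM, against 45.3 FPKM in sham kidney.

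Sparse apolipoproteins had large ratios in 1/3Nx that missed the threshold. Apoc1, a small exchangeable apolipoprotein, had 9.44 FPKM in 1/3Nx remnants, against 0.432 FPKM in sham kidney (log2 ratio 4.45, q = 0.253 in the authors' deposited table). Apoa2, a structural protein of HDL, had 3.41 FPKM in 1/3Nx remnants, against 0.563 FPKM in sham kidney (log2 ratio 2.60, q = 0.0566 in the authors' deposited table). Apoa1, the main protein of HDL, had 1.69 FPKM in 1/3Nx remnants, against 0.184 FPKM in sham kidney (log2 ratio 3.20, q = 0.207 in the authors' deposited table). In 5/6Nx remnants Apoc1 had 0.144 FPKM, against 0.214 FPKM in sham kidney, Apoa2 0.468 FPKM, against 0.280 FPKM in sham kidney, and Apoa1 0.0815 FPKM, against 0.0921 FPKM in sham kidney.

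Apoa5, which promotes the hydrolysis of plasma triglyceride, had the largest ratio of the set in 5/6Nx. It stood at 2.17 FPKM in 5/6Nx remnants, against 0.0369 FPKM in sham kidney (log2 ratio 5.87, q = 0.0941 in the authors' deposited table). In 1/3Nx remnants it stood at 0.370 FPKM, against 0.0739 FPKM in sham kidney, and was not tested. Apob, the scaffold of VLDL and LDL particles, had 0.640 FPKM in 5/6Nx remnants, against 0.158 FPKM in sham kidney (q = 0.166 in the authors' deposited table), and 0.436 FPKM in 1/3Nx remnants, against 0.318 FPKM in sham kidney (q = 0.531). Apoc2, the activator of lipoprotein lipase, had 3.90 FPKM in 5/6Nx remnants, against 6.81 FPKM in sham kidney, and 12.3 FPKM in 1/3Nx remnants, against 13.6 FPKM in sham kidney. Apoa4, mainly an intestinal product, had 0.409 FPKM in 5/6Nx remnants, against 0.254 FPKM in sham kidney, and 0.703 FPKM in 1/3Nx remnants, against 0.508 FPKM in sham kidney.

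Some members of the inter-alpha-trypsin inhibitor heavy chain family stabilise hyaluronan in the matrix. Among the fetuins and this family, 1 of the 5 tested in 1/3Nx was called and none of the 3 tested in 5/6Nx. Itih3 had 0.915 FPKM in 1/3Nx remnants, against 0.0429 FPKM in sham kidney (log2 ratio 4.42, q = 0.00183 in the authors' deposited table). Itih4 had 0.602 FPKM in 1/3Nx remnants, against 0.0481 FPKM in sham kidney (q = 0.227 in the authors' deposited table). Itih2 had 0.120 FPKM in 1/3Nx remnants, against 0.0236 FPKM in sham kidney, and was not tested. In 5/6Nx remnants these 3 heavy chains stayed at or under 0.0290 FPKM, against at most 0.0241 FPKM in sham kidney. Itih1 differed from them in both tables: it had 2.13 FPKM in 5/6Nx remnants, against 0.968 FPKM in sham kidney, and 1.81 FPKM in 1/3Nx remnants, against 1.92 FPKM in sham kidney.

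Ahsg, fetuin-A, an inhibitor of soft tissue calcification, was sparse in sham kidney and had high ratios in both tables without a call. It had 0.929 FPKM in 5/6Nx remnants, against 0.0625 FPKM in sham kidney (log2 ratio 3.89, q = 0.383 in the authors' deposited table). It had 4.18 FPKM in 1/3Nx remnants, against 0.126 FPKM in sham kidney (log2 ratio 5.06, q = 0.331 in the authors' deposited table). Its relative Fetub, fetuin-B, was at 6.48 FPKM in 5/6Nx remnants, against 6.11 FPKM in sham kidney, and at 9.43 FPKM in 1/3Nx remnants, against 12.2 FPKM in sham kidney.

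Among the clotting and contact system genes, F2 was called in 5/6Nx and Vtn in 1/3Nx. F2, prothrombin, stood at 62.3 FPKM in 5/6Nx remnants, against 6.50 FPKM in sham kidney (log2 ratio 3.26, q = 0.0161 in the authors' deposited table). In 1/3Nx remnants F2 stood at 11.6 FPKM, against 13.02 FPKM in sham kidney (q = 0.790 in the authors' deposited table). Vtn, vitronectin, an adhesive protein of plasma and matrix, had 1.98 FPKM in 1/3Nx remnants, against 0.257 FPKM in sham kidney (log2 ratio 2.94, q = 0.0186 in the authors' deposited table). It had 0.157 FPKM in 5/6Nx remnants, against 0.128 FPKM in sham kidney, and was not tested there.

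Hrg, histidine-rich glycoprotein, was lower in 1/3Nx at 3.55 FPKM, against 6.64 FPKM in sham kidney (log2 ratio -0.90, q = 0.0538 in the authors' deposited table). In 5/6Nx remnants it had 3.26 FPKM, against 3.32 FPKM in sham kidney. The clotting proenzymes F9, F10 and F12 stayed under 0.5 FPKM in every group. F10 had 0.239 FPKM in 5/6Nx remnants, against 0.0892 FPKM in sham kidney, and 0.443 FPKM in 1/3Nx remnants, against 0.178 FPKM in sham kidney. F12 had 0.0108 FPKM in 5/6Nx remnants, against 0.0245 FPKM in sham kidney, and 0.304 FPKM in 1/3Nx remnants, against 0.0494 FPKM in sham kidney. F9 was listed at 0 in 5/6Nx remnants, against 0.00961 FPKM in sham kidney, and had 0.224 FPKM in 1/3Nx remnants, against 0.0194 FPKM in sham kidney.

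Kininogen needs a separate word, since RefSeq lists Kng1l1 as an older symbol of Kng1 and a row of the tables bears that older name. It lies outside the symbol rule and enters no count. The Kng1l1 row stood at 198 FPKM in 5/6Nx remnants, against 2.02 FPKM in sham kidney (q = 0.00169 in the authors' deposited table), and at 9.92 FPKM in 1/3Nx remnants, against 4.06 FPKM in sham kidney (q = 0.0195). In the isoform table, 1 unnamed isoform with 191 FPKM in 5/6Nx remnants was listed at 0 in sham kidney (q = 0.219 in the authors' deposited table). The sham level of the row lay mostly in another unnamed isoform, with 7.32 FPKM in 5/6Nx remnants, against 1.98 FPKM in sham kidney (q = 0.255 in the authors' deposited table). Isoforms bearing the name summed to 0.426 FPKM in 5/6Nx remnants, against 0.0444 FPKM in sham kidney. Rat kininogen genes form a family of close copies, so reads could also be split among them.

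Of the 5 protease inhibitors, 1 was called higher and 2 lower in 1/3Nx. Serpina1, alpha-1-antitrypsin, the main inhibitor of neutrophil elastase, had 7.13 FPKM in 1/3Nx remnants, against 0.304 FPKM in sham kidney (log2 ratio 4.55, q = 0.00183 in the authors' deposited table). Serpinc1, antithrombin, fell to 37.4 FPKM in 1/3Nx remnants, against 80.9 FPKM in sham kidney (log2 ratio -1.11, q = 0.00183 in the authors' deposited table). Serpinf2, the plasmin inhibitor alpha-2-antiplasmin and the most abundant gene of the set in sham kidney, fell to 107 FPKM in 1/3Nx remnants, against 170 FPKM in sham kidney (log2 ratio -0.66, q = 0.0440 in the authors' deposited table). Serpina1, which sham kidney hardly made, was thus called higher, where 255 of all 2018 tested rows above 0 and under 1 FPKM were. Of the 3 inhibitors that sham kidney made at over 10 FPKM, 2 were called lower. Among all 5857 tested rows with 1 name and at least 10 FPKM in sham, 317 were called lower. Both falls lay mostly in unnamed isoforms, as described below.

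The other inhibitors were not called. Pzp, a protease trap of the alpha-2-macroglobulin family, had 39.5 FPKM in 1/3Nx remnants, against 49.5 FPKM in sham kidney (q = 0.478 in the authors' deposited table). Serpind1, heparin cofactor II, had 0.249 FPKM in 1/3Nx remnants, against 0.0148 FPKM in sham kidney, and was not tested. In 5/6Nx no inhibitor was called. There Serpinc1 had 30.7 FPKM, against 40.4 FPKM in sham kidney (q = 0.819 in the authors' deposited table). Serpinf2 had 56.0 FPKM in 5/6Nx remnants, against 84.7 FPKM in sham kidney (q = 0.658 in the authors' deposited table). The log2 ratio of Serpinf2 was -0.60 in 5/6Nx and -0.66 in 1/3Nx, with a call in 1/3Nx alone, and a difference between the surgeries was not tested. Pzp had 14.8 FPKM in 5/6Nx remnants, against 24.6 FPKM in sham kidney, Serpina1 0.223 FPKM, against 0.151 FPKM in sham kidney, and Serpind1 0.0688 FPKM, against 0.00732 FPKM in sham kidney.

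The 3 enzymes are not secreted and mark hepatocyte metabolism. Cps1, the mitochondrial enzyme of the first step of the urea cycle, had 0.581 FPKM in 5/6Nx remnants, against 0.0300 FPKM in sham kidney (log2 ratio 4.27, q = 0.0183 in the authors' deposited table). In 1/3Nx remnants Cps1 had 0.490 FPKM, against 0.0608 FPKM in sham kidney (log2 ratio 3.01, q = 0.0660 in the authors' deposited table). Tat, tyrosine aminotransferase, had 0.784 FPKM in 5/6Nx remnants, against 0.0577 FPKM in sham kidney (q = 0.0954 in the authors' deposited table), and 0.458 FPKM in 1/3Nx remnants, against 0.116 FPKM in sham kidney (q = 0.267). Otc, the urea cycle enzyme after Cps1, had 0.0917 FPKM in 5/6Nx remnants, against 0.150 FPKM in sham kidney, and 0.496 FPKM in 1/3Nx remnants, against 0.301 FPKM in sham kidney. All 3 enzymes stayed under 1 FPKM in every group.

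The rows of 24 genes held only isoforms named for the gene, Alb, Gc, Serpina1, Vtn, Itih3, Apoc3 and Apoh among them. The other 11 rows also held isoforms without a name that the authors' assembly had placed in the same row, and whether those are transcripts of the named gene was not tested. Unnamed isoforms made over 50% of the row in sham kidney for 7 of the 35 genes. Among genes at 1 FPKM or more in sham these were 4 of 12 in the 5/6Nx table and 5 of 14 in the 1/3Nx table, where 42.8% and 42.4% of all rows with 1 name at that level were so.

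The prothrombin result in 5/6Nx rested on 1 such isoform. The named F2 transcript had 1.55 FPKM in 5/6Nx remnants, against 4.13 FPKM in sham kidney (q = 0.509 in the authors' deposited table). An unnamed isoform of the row had 56.2 FPKM in 5/6Nx remnants and was listed at 0 in sham kidney (q = 0.260 in the authors' deposited table). Rows in which unnamed isoforms listed at 0 in sham made over 50% of the 5/6Nx level numbered 11 of the 10106 rows with 1 name and at least 1 FPKM in sham, and 8 of the 161 such rows called higher. The 1/3Nx table had none among 11317 rows. The higher F2 level was thus carried by the unnamed isoform, while the named transcript ran the other way without a call.

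The decline of antithrombin and alpha-2-antiplasmin in 1/3Nx likewise lay mostly outside their named transcripts. Named Serpinc1 isoforms summed to 5.55 FPKM in 1/3Nx remnants, against 6.97 FPKM in sham kidney. The unnamed isoform of the row had 31.9 FPKM in 1/3Nx remnants, against 73.9 FPKM in sham kidney (q = 0.00490 in the authors' deposited table). Named Serpinf2 isoforms summed to 22.1 FPKM in 1/3Nx remnants, against 23.6 FPKM in sham kidney, and unnamed ones to 85.3 FPKM in 1/3Nx remnants, against 146 FPKM in sham kidney. The Ttr rise in 1/3Nx was in both kinds: named 1.18 FPKM in 1/3Nx remnants, against 0.0834 FPKM in sham kidney, and unnamed 11.1 FPKM in 1/3Nx remnants, against 0.540 FPKM in sham kidney. The 4.18 FPKM of Ahsg in 1/3Nx remnants were all in an unnamed isoform, while in 5/6Nx remnants named isoforms held 0.924 of the 0.929 FPKM. With named isoforms alone, 27 of the 35 genes were higher and 8 lower in 1/3Nx, and 17 were higher and 18 lower in 5/6Nx. At the level of single isoforms, named transcripts of 2 genes, Alb and Serpina1, were called in the authors' deposited table of 1/3Nx, and none in that of 5/6Nx; of all tested isoforms with 1 name 3.13% were called in 1/3Nx and 5.22% in 5/6Nx.

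**Figure D3:**
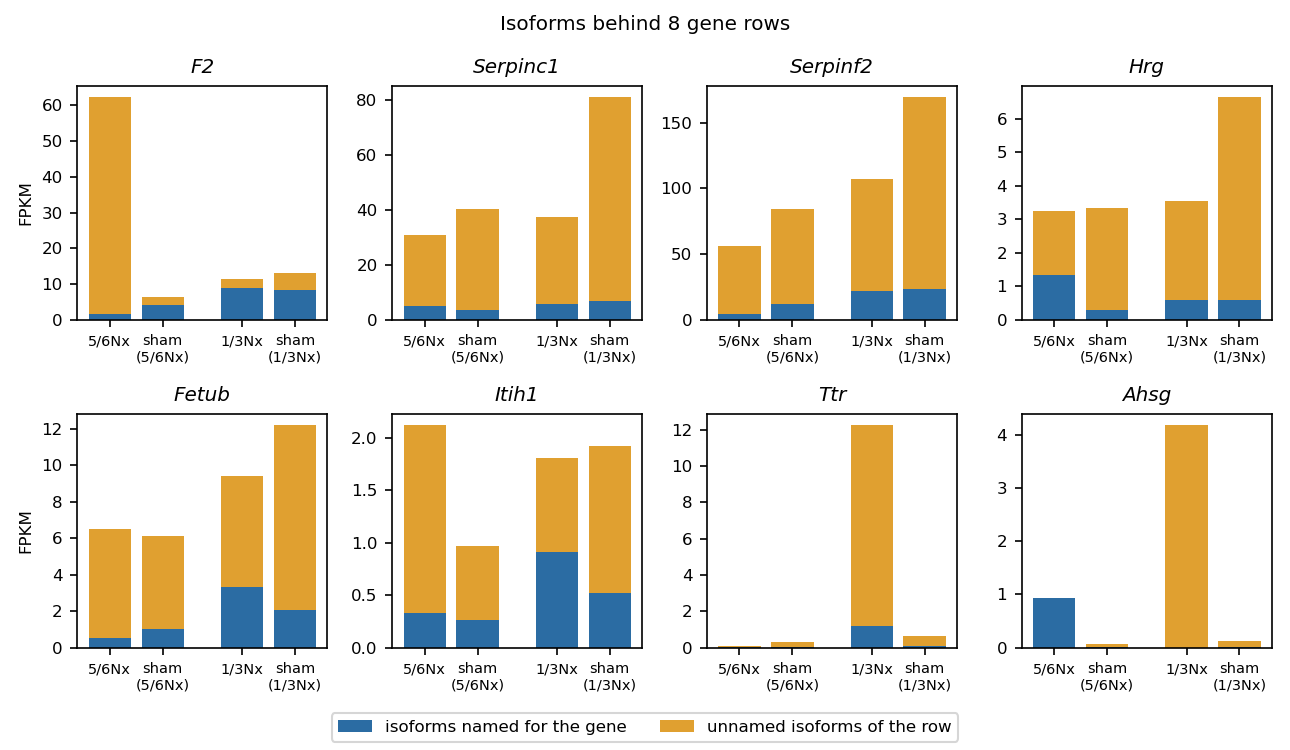
FPKM of 8 gene rows, split into isoforms named for the gene (blue) and unnamed isoforms of the same row (yellow); in each panel 5/6Nx and its sham stand left, 1/3Nx and its sham right, and bars start at 0. The F2 bar of 5/6Nx is nearly all unnamed isoforms, and the Serpinc1 and Serpinf2 bars are lower in 1/3Nx than in sham mostly through unnamed isoforms.

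Other genes of the liver programme, taken from a list of further secreted proteins, moved in both directions in 1/3Nx. Of 46 with a row, 33 were tested, 4 were called higher and 3 lower, with a median log2 ratio of 0.28. The higher ones were Hp (haptoglobin, 6.64 FPKM in 1/3Nx remnants, against 0.553 FPKM in sham kidney) and Cp (ceruloplasmin, 60.5 FPKM in 1/3Nx remnants, against 12.9 FPKM in sham kidney), with Hpx and Crp, named here after their values were seen. The lower ones were Proc (protein C, 23.1 FPKM in 1/3Nx remnants, against 44.9 FPKM in sham kidney) and Apcs (serum amyloid P, 83.3 FPKM in 1/3Nx remnants, against 164 FPKM in sham kidney), with Apom, also named after its values were seen. In 5/6Nx 29 were tested and 2 called higher, the pentraxin Crp (40.1 FPKM in 5/6Nx remnants, against 0.287 FPKM in sham kidney) and Cp (21.8 FPKM in 5/6Nx remnants, against 6.43 FPKM in sham kidney), and neither with q-values recomputed over rows with 1 name (0.0668 for Crp and 0.226 for Cp, from the p-values of the authors' deposited table). Of the 1/3Nx calls, Hp, Hpx and Crp stood under 1 FPKM in sham and were higher, while Proc, Apcs and Apom stood over 10 FPKM and were lower; Cp, also over 10 FPKM in sham, was the exception.

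Markers of hepatocytes that are not secreted, and of other liver cells, were read beside these values. Of 27 such hepatocyte markers with a row, 22 were tested in 1/3Nx, none was called higher and 3 were called lower (Asgr1, Cyp8b1 and Bhmt); 7 had an unadjusted p under 0.05 in the authors' deposited table. By level in sham kidney, 13 of the 15 markers under 1 FPKM were higher in 1/3Nx and 2 lower, and of the 12 at 1 FPKM or more 3 were higher and 9 lower. Of all rows above 0 and under 1 FPKM 62.2% were higher in 1/3Nx, and 1 of the 15 was at 0 in sham and could only rise. In 5/6Nx 7 of the 16 markers under 1 FPKM were higher and 8 lower, where 59.2% of all rows above 0 and under 1 FPKM were higher. Of the 11 at 1 FPKM or more 4 were higher and 7 lower in 5/6Nx. The sparse markers included Fabp1, a liver fatty acid binding protein, with 3.96 FPKM in 1/3Nx remnants, against 0.223 FPKM in sham kidney (q = 0.635 in the authors' deposited table). Another was Tdo2, a tryptophan-degrading enzyme, with 0.538 FPKM in 1/3Nx remnants, against 0.0132 FPKM in sham kidney (q = 0.419 in the authors' deposited table). Both were named after their values were seen, outside the naming rule, and neither passed the test. The 3 markers that were called in 1/3Nx ran the other way. Asgr1 had 12.3 FPKM in 1/3Nx remnants, against 29.1 FPKM in sham kidney. Cyp8b1 had 0.827 FPKM in 1/3Nx remnants, against 2.51 FPKM in sham kidney, and Bhmt had 28.6 FPKM, against 47.5 FPKM in sham kidney. In 5/6Nx 15 were tested, 1 was called higher (Asgr2, a subunit of the asialoglycoprotein receptor, 70.2 FPKM in 5/6Nx remnants, against 2.88 FPKM in sham kidney) and 2 lower (Cyp2c11 and Slc27a5); Cyp2c11 was not called with q-values recomputed over rows with 1 name. Of 9 markers of Kupffer and sinusoidal liver cells, the summed level was 3.43 FPKM in 5/6Nx remnants, against 1.38 FPKM in sham kidney, and 6.28 FPKM in 1/3Nx remnants, against 2.77 FPKM in sham kidney. Most of each sum was Lyve1, which lymphatic vessels also make, at 4.80 FPKM in 1/3Nx remnants, against 2.51 FPKM in sham kidney (q = 0.0134 in the authors' deposited table). All 9 were higher in 1/3Nx and 8 of them stood under 1 FPKM in sham kidney, 3 of those at 0. Dnase1l3 had 1.06 FPKM in 1/3Nx remnants, against 0.200 FPKM in sham kidney (q = 0.0754 in the authors' deposited table). Cd5l had 0.181 FPKM in 1/3Nx remnants, against 0.00926 FPKM in sham kidney, and Timd4 had 0.0862 FPKM in 1/3Nx remnants and was listed at 0 in sham kidney; neither was tested by the authors. The defining Kupffer gene Clec4f, outside the naming rule in 1/3Nx, was at 0.0469 FPKM in 1/3Nx remnants, against 0.0275 FPKM in sham kidney, and was listed at 0 in 5/6Nx remnants, against 0.0138 FPKM in sham kidney. The part of liver cells in the levels of the 35 genes was not tested.

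Of the transcription factors that drive the liver programme, none was called in 1/3Nx. Of 16 with a row, 11 were tested in the authors' deposited table, and 4 had an unadjusted p under 0.05. Cebpa stood at 18.4 FPKM in 1/3Nx remnants, against 26.6 FPKM in sham kidney (q = 0.163 in the authors' deposited table). Nr1i2, a nuclear receptor for foreign compounds, stood at 5.41 FPKM in 1/3Nx remnants, against 8.43 FPKM in sham kidney (q = 0.166 in the authors' deposited table). In 5/6Nx 13 were tested and 2 called higher, Nr1i3 (15.0 FPKM in 5/6Nx remnants, against 2.04 FPKM in sham kidney) and Nr5a2 (0.504 FPKM in 5/6Nx remnants, against 0.0238 FPKM in sham kidney), and neither with q-values recomputed over rows with 1 name (0.0962 for Nr1i3 and 0.307 for Nr5a2, from the p-values of the authors' deposited table). Of the 16, 10 were lower in 5/6Nx, Hnf4a among them at 48.6 FPKM in 5/6Nx remnants, against 81.1 FPKM in sham kidney (q = 0.456 in the authors' deposited table).

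Genes of another organ, the pancreas, were read as well. Of 14 markers of pancreatic acinar cells with a row, 13 were tested in each table, and 10 were called higher in 1/3Nx and 5 in 5/6Nx, 2 of these 5 with q-values recomputed over rows with 1 name. In level, 14 were higher in 5/6Nx and 13 in 1/3Nx, where Cela1, also made by sham kidney, was at 184 FPKM, against 203 FPKM in sham kidney. Their summed level was 958 FPKM in 5/6Nx remnants, against 103 FPKM in sham kidney, and 1356 FPKM in 1/3Nx remnants, against 206 FPKM in sham kidney; Cela1 made most of the sham sums. Pnlip, pancreatic lipase, had 96.1 FPKM in 1/3Nx remnants, against 0.129 FPKM in sham kidney, and Prss1, trypsinogen, had 179 FPKM in 5/6Nx remnants, against 0.226 FPKM in sham kidney. Islet markers were lower in level: Ins1, insulin, had 6.15 FPKM in 5/6Nx remnants, against 0.0146 FPKM in sham kidney, and 1.05 FPKM in 1/3Nx remnants, against 0.0295 FPKM in sham kidney. Ttr is itself a marker of islets and of choroid plexus. Most acinar genes were thus high in both surgeries. Alb, Ttr and Serpina1, 3 of the 6 liver plasma protein genes called higher in 1/3Nx, stayed under 1 FPKM in 5/6Nx. Of the 23 liver plasma protein genes under 1 FPKM in sham, 13 were higher and 10 lower in 5/6Nx. The higher ones included Apoa5, at 2.17 FPKM in 5/6Nx remnants, against 0.0369 FPKM in sham kidney. Cps1, which was called there, had 0.581 FPKM in 5/6Nx remnants, against 0.0300 FPKM in sham kidney. With 1 value per group, the part of any single rat in either signal was not tested.

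Kidney and immune markers were read beside the abundant liver plasma protein genes. The tissue carried its kidney markers, with Kap, a protein of the proximal tubule, at 2863 FPKM in 5/6Nx remnants, against 5672 FPKM in sham kidney, and at 9223 FPKM in 1/3Nx remnants, against 11364 FPKM in sham kidney. All 11 markers of the proximal tubule were lower in 1/3Nx, 2 of them called, and 9 of 11 were lower in 5/6Nx with none called (0 with an unadjusted p under 0.05 in the authors' deposited table). The median log2 ratio of these tubule markers was -0.40 in 1/3Nx and -0.48 in 5/6Nx. The median over the 9 liver plasma protein genes with over 10 FPKM in sham was -0.33 in 1/3Nx, and that over the 6 such genes in 5/6Nx was -0.49. Over all rows with 1 name and at least 10 FPKM in sham the median was -0.15 in 1/3Nx, with 66.2% of rows lower, and -0.22 in 5/6Nx, with 68.8% lower. Of the 8 receptors and partners that take up filtered plasma proteins, 2 were called lower in 1/3Nx, Amn, the anchor of cubilin (103 FPKM in 1/3Nx remnants, against 259 FPKM in sham kidney), and Pdzk1ip1 (510 FPKM in 1/3Nx remnants, against 851 FPKM in sham kidney). Of 10 macrophage markers 8 were called higher in 1/3Nx and none in 5/6Nx, where all 10 were higher and 0 had an unadjusted p under 0.05 in the authors' deposited table. Of 12 regulators of the acute phase response, which changes hepatic secretion of several of these proteins, 9 were tested and 7 called higher in 1/3Nx, Socs3 among them (6.08 FPKM in 1/3Nx remnants, against 1.14 FPKM in sham kidney), and none of 9 was called in 5/6Nx, where 1 had an unadjusted p under 0.05 in the authors' deposited table. The part of tubule mass or inflammation in the levels of the 35 genes was not tested.

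**Figure D4:**
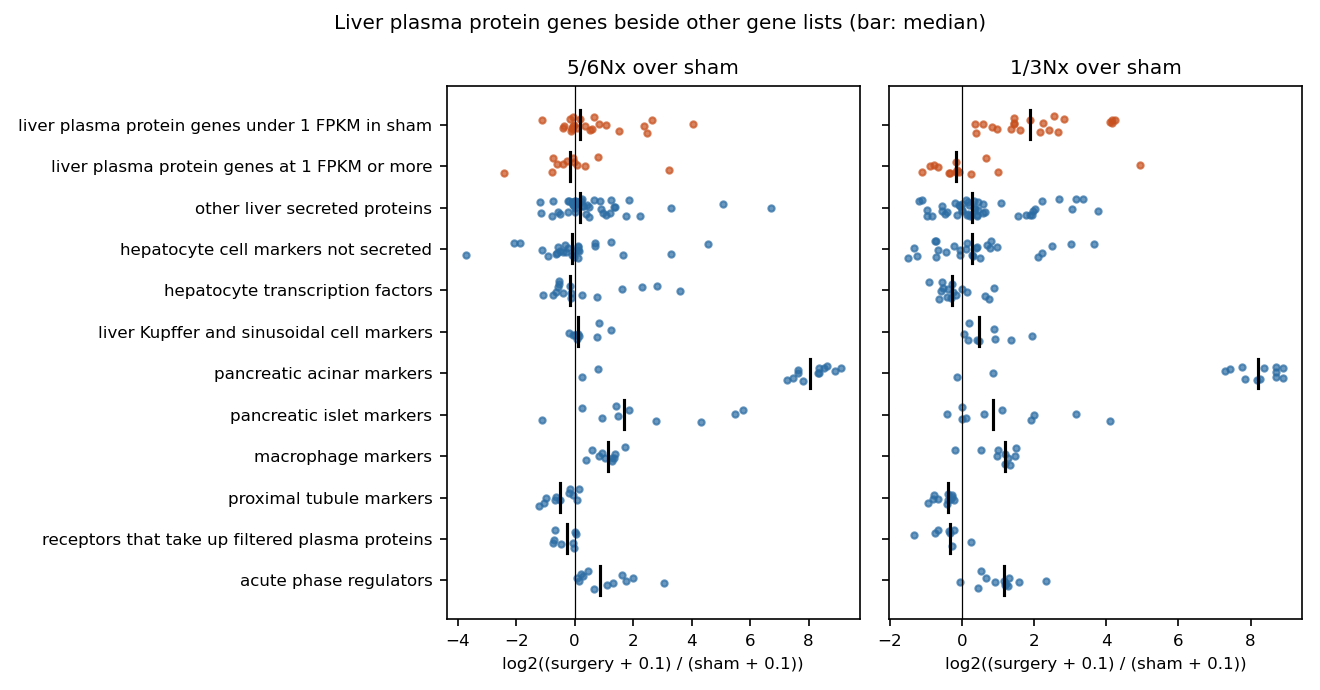
Log2 ratios of surgery over sham (pseudocount 0.1 FPKM), 5/6Nx left and 1/3Nx right; each point is a gene, orange for the liver plasma protein genes split at 1 FPKM in sham, blue for other lists, and bars mark list medians. The liver plasma protein genes under 1 FPKM in sham have a median of 0.18 in 5/6Nx and 1.87 in 1/3Nx, while acinar markers have a median of 8.06 in 5/6Nx and 8.22 in 1/3Nx.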

How the data were processed

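Labels, series design and deposited tables were the sources. Per the submitters' processing notes, the tools were TopHat2 2.1.1, Cufflinks 2.2.1, StringTie, cutadapt and FastQC, and the build rn5; their roles are not stated there. Per the file headers, the authors deposited gene and isoform tables of 5/6Nx against sham and of 1/3Nx against sham, with FPKM per group, log2 fold, p-value and q-value. A sequencing summary, also deposited by the authors, gives per library a count of reads, the percent mapped, the percent of high-quality bases and a quality score. No source used here gives how rats were combined into a group value. Since some contig names come from newer assemblies, the tables' coordinates are not printed.

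A limma fit had been planned for values per library; the tables hold group values, so the authors' test was used and no test was added. Log2 ratios were recomputed from the deposited FPKM, since 628 rows with several gene names have shifted cells; those rows and 26 with a date for a name were left out of named genes. Ratios of lists carry a pseudocount of 0.1 FPKM, which understates the change of low genes; ratios printed for a single gene carry none. A call is a deposited q under 0.05 over all tested rows, and the q-values recomputed from the deposited p-values differed by at most 5.25e-07. The call and ratio code was checked on simulated data. The 36 genes, their roles and all lists were chosen with earlier results of these data known, so directions and calls over them are no independent support.

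All 36 genes are given by value or count. From each other list, genes were named by the smallest deposited p, then the largest ratio (up to 4), plus the gene highest in sham. Promoter windows came from the RefSeq table of GRCr8 and held 29 of the 36 symbols; Apoa1, Apoa2, Apob, Apoc3, Fetub, Hrg and Serpind1 had no entry. Some named items of these lists and motifs are not reported here. Python 3.11.15, pandas 2.3.3, numpy 2.4.6 and matplotlib 3.10.9 were used. Alternatives were another scope or threshold of q, a filter at a mean of 1 FPKM, isoforms in place of genes, other pseudocounts, splits and centring, and sums over repeated rows. The sum of named isoforms was added after seeing the data.

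The remaining lists gave these counts. Of 5 bile duct markers with a row, 1 was called higher in 1/3Nx and none in 5/6Nx. Of 9 small intestine markers none was called in either surgery. Of 10 adipocyte markers, 3 were called higher in 5/6Nx and 2 in 1/3Nx. Of 10 islet markers 1 was called higher in each surgery, in 1/3Nx the shared gene Ttr. Of 6 choroid plexus markers 1 was called higher (Ttr) and 1 lower in 1/3Nx, and none in 5/6Nx. Of 5 endothelial markers 1 was called higher and 1 lower in 1/3Nx, and none in 5/6Nx. Of 4 mesothelial markers 1 was called higher in 1/3Nx and none in 5/6Nx.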

Additional observations from a re-analysis of the deposited data

Results flagged for a closer look

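Among the 6 libraries of 5/6Nx, replicate 5 had 103.557 M reads, far above the other 5 by Dixon's criterion. Chance marks about 1 in 20 groups in this way for each measure. Reads, mapped share and share of high-quality bases were checked in every group, and only this count of reads was marked. The same library mapped 77.2% of its reads, with 86.3% of bases past the Q30 quality score. Replicate 3 of 5/6Nx mapped 62.6%, with 81.6% of bases at that quality, while the other 15 libraries had 88.8% to 90.6%. The group FPKM of the deposited tables do not show what share of the 5/6Nx levels of F2, Cps1 or Apoa5 came from either library.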

How the results depend on the processing

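The 2 calls in 5/6Nx, F2 and Cps1, became 0 with q-values recomputed over rows with 1 gene name, 0 at q under 0.01, 1 with a mean of at least 1 FPKM and 0 in the isoform table. There F2 turned to a log2 ratio of -1.41 (q = 0.509 in the authors' deposited table), since the named transcript stands in for the row. The 9 calls in 1/3Nx became 4 at q under 0.01 and 2 in the isoform table. Recomputed q-values added Apoa2 and Hrg to the calls in 1/3Nx, for 11. The median log2 ratio of -0.0055 in 5/6Nx became 0.19 when centred on all rows with at least 1 FPKM in sham. The median of 0.99 in 1/3Nx became 1.90 with a pseudocount of 0.01, 0.30 with 1, and 0.082 over genes with a mean of at least 1 FPKM. Its size thus depended on the sparse genes and the pseudocount. With the split at 2 FPKM in sham, the 2 genes called higher at or above it in 1/3Nx became 1, since Alb moved to the sparse class; the other counts of calls by class stayed within 1.5 times at 0.5 and 2 FPKM. No paired analysis was possible because the tables hold 1 value per group and replicate numbers follow accession order; leaving out a library was not run for the same reason. The authors did not test 14 of the 35 genes in 5/6Nx and 6 in 1/3Nx, and for these the depth behind a level is unknown.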
